A study of Mus musculus with 8 samples.

Results

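The miR-30 family was followed through 5 assays, miR-30a, miR-30b, miR-30c, miR-30d and miR-30e, out of 381 small RNA assays listed on a TaqMan Array Rodent MicroRNA A Card. The 5 were taken by assay name, and no passenger-strand assay of the family was among those listed. Total RNA came from whole liver of female C57B6 mice, 4 weeks old when treatment began, which were left untreated or were injected intraperitoneally with carbon tetrachloride (CCl4) in corn oil for 1, 4 or 8 weeks. CCl4 is a hepatotoxin that injures hepatocytes and, when given repeatedly, causes liver fibrosis. Each of the 4 groups had 2 cards, 8 in all. The labels give a CCl4 dose of 1 mg/kg, whereas the methods of the study give 1 ml/kg, and the sources used here do not say whether untreated mice received corn oil. The labels also do not say whether the 2 cards of a group came from separate mice. The design text gives more mice at 1 and 4 weeks than there are cards. A figure legend of the study also counts more normal livers than there are untreated cards. All p-values therefore measure only the spread between these cards. The 3 comparisons with untreated liver share the same 2 untreated cards. All mice were 4 weeks old at the start, so longer treatment also meant older mice at collection. The age of untreated mice at collection is not given in the sources used here. Time on CCl4 and age therefore cannot be told apart.

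A microRNA (miRNA) is a short RNA that guides an Argonaute protein to messenger RNAs, mostly by pairing of its seed, the bases near its 5′ end, and lowers their translation and stability. Members of a family share the seed and therefore most of their predicted targets, but they can be made from separate genes. The miR-30 family is widely expressed in epithelial tissues including liver, and its known targets include Snai1, a transcription factor of epithelial-mesenchymal transition, and Ccn2 (connective tissue growth factor), a profibrotic matricellular protein.

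The mature sequences are shown because the assays differ in how much sequence they share. Of the 3 members with a sequence here, miR-30a and miR-30e are the closest. Their ratio changed between some times in the data below, though it varied less over the cards than that of the median pair of assays. RefSeq annotation of the GRCm38.p6 build held a mature sequence for 3 of the 5 members and for miR-384-5p, the other miRNA in that table with this seed. Capitals mark the seed, bases 2 to 8 from the 5′ end.
miR-30a: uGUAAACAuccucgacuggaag
miR-30c: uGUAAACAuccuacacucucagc
miR-30e: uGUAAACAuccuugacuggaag
miR-384-5p: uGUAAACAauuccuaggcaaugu

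The seed GUAAACA was found in 4 of 1679 mature miRNA names in the table. miR-30a and miR-30e differed by 1 substitution, C13U, with positions counted from 1 at the 5′ end of miR-30a and the base of miR-30a given first. miR-30c shared the first 12 bases with both of them and then diverged, and miR-384-5p shared the first 8. How well the card tells miR-30a from miR-30e was not tested here.

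The genes lie in clusters. miR-30a is read from chr1:23272274-23272295 on the plus strand, in the same neighbourhood as 1 of the 2 genes for miR-30c, Mir30c-2, whose mature sequence lies at chr1:23291714-23291736. The other, Mir30c-1, has its mature sequence at chr4:120769584-120769606 on the minus strand, next to that of miR-30e at chr4:120772660-120772681, and both of these genes lie within the protein-coding gene Nfyc, which encodes a subunit of the transcription factor NF-Y. Mir30b and Mir30d neighbour each other on chromosome 15. Because Mir30c-1 and Mir30c-2 give an identical mature miRNA, the miR-30c assay sums both.

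Each card gave a threshold cycle (Ct) per assay, the PCR cycle at which fluorescence crosses a threshold, and each cycle fewer means roughly 2 times as much template at the start. All 5 members had a Ct on all 8 cards. Their mean Ct ran from 23.3 for miR-30c to 27.3 for miR-30d, which placed them at ranks 10 to 47 of the 166 tested assays, which had a Ct on all cards that averaged under 35. The card-wide mean Ct of 149 reference assays, those below 35 on every card, ranged from 27.5 to 29.8, with a difference of up to 1.52 between the 2 cards of a group. Each Ct was therefore subtracted from that mean of its own card, and the result is called the centred log2 value. A relative level is the same value on a linear scale, divided by the untreated level (the mean of both untreated cards on the log2 scale). Different assays amplify with different efficiency, so a rank by Ct, or a ratio of 2 assays on a card, says nothing of which miRNA is more abundant, only changes in it were compared, and the sums over marker lists given further on weight each assay by its Ct. The liver marker miR-122, the dominant miRNA of hepatocytes, was determined on every card at a Ct between 21.95 and 24.16.

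The members did not all have their lowest level at the same time. miR-30a and miR-30d stood lowest after 1 week of CCl4, at 0.426 ± 0.0100 and 0.479 ± 0.0604 (SD, n = 2) of the untreated level. miR-30b, miR-30c and miR-30e stood lowest after 4 weeks, at 0.450 ± 0.0330, 0.310 ± 0.0288 and 0.291 ± 0.0440. At 8 weeks all 5 lay between those low points and the untreated level, and none passed the test there. Each of the 5 kept its own lowest time, as just given, under 5 of the other 9 scalings of the cards. The exceptions were miR-30b with quantiles (a tie of 1 and 4 weeks) or with 3 control RNAs (lowest at 1 week), miR-30b, miR-30c and miR-30e with U6 alone (lowest at 1 week), and miR-30a and miR-30d with snoRNA202 alone (lowest at 8 weeks). In RNA from whole liver, fewer cells of a type and less of the miRNA per cell cannot be told apart.

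miR-30a is the member whose mature strand differs from miR-30e by that 1 base. Its relative level was 0.960 and 1.04 without treatment, then 0.433 and 0.418 on the 1-week cards, 0.476 and 0.669 on the 4-week cards and 0.660 and 0.534 on the 8-week cards. All 6 treated cards lay below both untreated cards, and the 1-week cards were the lowest of all 8. The log2 difference from untreated was -1.23 at 1 week (SE 0.30, adjusted p = 0.0190), -0.82 at 4 weeks (adjusted p = 0.0702) and -0.75 at 8 weeks (adjusted p = 0.172). Only the 1-week difference passed the test, which was limma's moderated test across the 166 assays, with p-values adjusted by the Benjamini-Hochberg method and a threshold of 0.05. From highest to lowest the groups ran untreated, 8 weeks, 4 weeks and 1 week, and no 2 neighbours in that order passed the adjusted test. Untreated against 8 weeks had a 95% interval of -1.44 to -0.06. Cards did not overlap between untreated and 8 weeks or between 4 and 1 weeks, whereas the 8-week and 4-week cards overlapped. How often neighbouring groups stay apart over all tested assays was not counted, so for each member the order and overlap only describe its cards.

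miR-30d, whose gene neighbours that of miR-30b, followed miR-30a closely. The untreated cards gave relative levels of 0.974 and 1.03, the 1-week cards 0.522 and 0.436, the 4-week cards 0.574 and 0.727, and the 8-week cards 0.707 and 0.640. Again no treated card overlapped the untreated cards, and both 1-week cards were below every other card. The log2 difference was -1.07 at 1 week (SE 0.28, adjusted p = 0.0258), -0.63 at 4 weeks (adjusted p = 0.127) and -0.57 at 8 weeks (adjusted p = 0.236). The order of its groups was that of miR-30a, with no neighbours past the adjusted test and with overlap between the 8-week and 4-week cards alone.

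miR-30b varied least between the cards of a group, with a pooled SD of 0.06 on the log2 scale against a median of 0.39 over the tested assays. Relative levels of 0.987 and 1.01 on untreated cards were followed by 0.743 and 0.781 on the 1-week cards, 0.473 and 0.426 on the 4-week cards, and 0.660 and 0.667 on the 8-week cards. The 4 pairs of cards did not overlap one another. The log2 difference was -0.39 at 1 week (adjusted p = 0.261), -1.15 at 4 weeks (SE 0.26, adjusted p = 0.0139) and -0.59 at 8 weeks (adjusted p = 0.201). The moderated test takes part of its spread from all assays, so the narrow spacing of miR-30b alone did not decide these calls.

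miR-30c, the member with the lowest mean Ct, had relative levels of 0.967 and 1.03 in untreated liver, 0.785 and 0.837 after 1 week, 0.330 and 0.289 after 4 weeks, and 0.595 and 0.502 after 8 weeks. The 4-week cards were below all others, and the 4 groups did not overlap. The log2 difference was -0.30 at 1 week (adjusted p = 0.381), -1.69 at 4 weeks (SE 0.27, adjusted p = 0.00529) and -0.87 at 8 weeks (adjusted p = 0.114). For miR-30b and miR-30c alike the groups ran untreated, 1 week, 8 weeks and 4 weeks from highest to lowest. No neighbours in that order passed the adjusted test. None of their cards overlapped, which describes these cards and was not tested. miR-30c at 8 against 4 weeks had a 95% interval of 0.20 to 1.45.

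miR-30e was the member whose 1-week cards overlapped the untreated cards. The untreated cards stood at 0.839 and 1.19 and the 1-week cards at 1.19 and 1.12, with overlap. The 4-week cards stood at 0.260 and 0.322 and the 8-week cards at 0.584 and 0.342, all below both untreated cards. The log2 difference was 0.20 at 1 week (SE 0.36, 95% interval -0.64 to 1.04, adjusted p = 0.670), -1.79 at 4 weeks (SE 0.36, adjusted p = 0.00988) and -1.16 at 8 weeks (adjusted p = 0.114). The sign of the 1-week value changed with the scaling of the cards, being below 0 under 6 of the other 9 and running from -2.17 with U6 alone to 1.59 with snoRNA202 alone. The groups ran 1 week, untreated, 8 weeks and 4 weeks from highest to lowest. No neighbours passed the adjusted test, with an unadjusted p of 0.0130 from limma for untreated against 8 weeks. The 1-week and untreated cards were the only neighbours to overlap. miR-30e also had the widest spread of the 5 between cards of a group, an SD of 0.35.

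**Figure D1:**
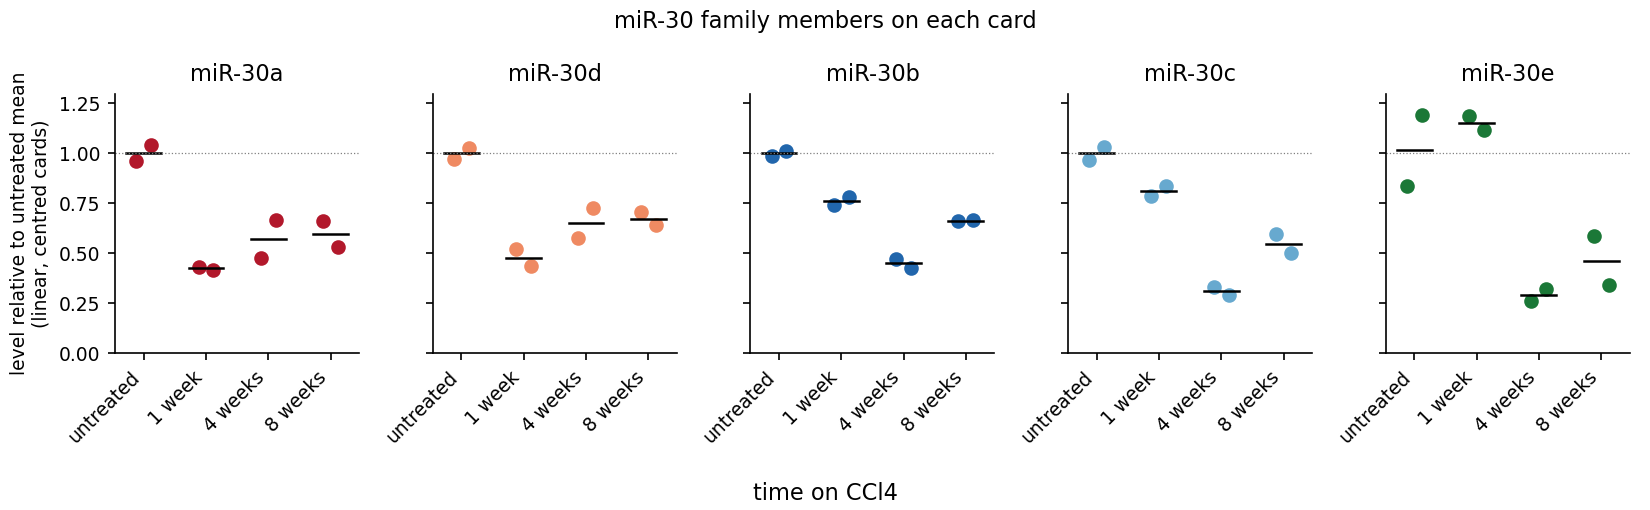
Level of each miR-30 member on each card, on a linear scale relative to the untreated level, by time on CCl4. Each point is a card, black lines are group means of the 2 cards, and the dotted line is 1. miR-30a and miR-30d are lowest at 1 week (means of 0.426 and 0.479), whereas miR-30b, miR-30c and miR-30e are lowest at 4 weeks (0.450, 0.310 and 0.291), with the exceptions under U6, snoRNA202, quantile and control scaling given in the text.

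At 1 week, 2 of 5 members fell, miR-30a and miR-30d, and none rose. Of all 166 assays, 14.5% were called lower at this time. Both cards were below both untreated cards for 4 of the 5 members, all but miR-30e, against 40.4% of all assays. The median log2 difference of the 5 was -0.39, beside -0.09 over all assays. Both calls were lost without untreated replicate 1, untreated replicate 2, 1-week replicate 1 or 1-week replicate 2, each of which gave a count of 0. The count was also 0 with the card median, with snoRNA135 alone, without scaling and with undetermined values set to Ct 40. With snoRNA202 alone as the reference, all 5 members lay above untreated (median 1.00), and with each of the other 8 scalings tried at least 4 lay below.

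At 4 weeks, 3 of 5 members fell, miR-30b, miR-30c and miR-30e, where 16.9% of all assays were called lower. All 5 members lay entirely below the untreated cards, against 34.3% of the assays. Their median log2 difference was -1.15, beside 0.03 over all assays, and the 5 values spanned -0.63 to -1.79. Without untreated replicate 2 the count was 1 of 5, with miR-30c left, and the miR-30b call was also lost without untreated replicate 1 or 4-week replicate 2. The count was 0 with U6 alone, without scaling and with undetermined values set to Ct 40, and 1 with quantiles, with 3 control RNAs and with snoRNA202 alone. With U6 alone as the reference, 3 members (miR-30a, miR-30b and miR-30d) lay above untreated, and with 3 control RNAs miR-30d did so, at 0.013.

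At 8 weeks none of the 5 passed the test, where 0.602% of all assays were called lower. Unadjusted p-values from limma were 0.0128 (miR-30c), 0.0130 (miR-30e), 0.0366 (miR-30a), 0.0526 (miR-30b) and 0.0776 (miR-30d). All 5 lay entirely below the untreated cards, against 32.5% of the assays, and their median log2 difference was -0.75, beside -0.04 over all assays. With U6 alone, 4 of the 5 lay above untreated.

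With the 3 times averaged, 4 of 5 members fell and miR-30e did not pass (log2 difference -0.92, adjusted p = 0.0518), where 16.3% of all assays were called lower. The other 4 differed by -0.71 to -0.96, with adjusted p-values of 0.0187 (miR-30c), 0.0263 (miR-30a), 0.0395 (miR-30b) and 0.0425 (miR-30d). For the same 4 members all 6 treated cards lay below both untreated cards, against 16.3% of the assays. All 5 averages were below 0 under each of the 10 scalings, but the count of calls was 0 under each of the other 9. Leaving out untreated replicate 1, untreated replicate 2 or 1-week replicate 1 also gave 0, leaving out 1-week replicate 2 gave 1, and leaving out 4-week replicate 1 or 8-week replicate 2 gave 2 and either of the remaining cards gave 3.

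**Figure D2:**
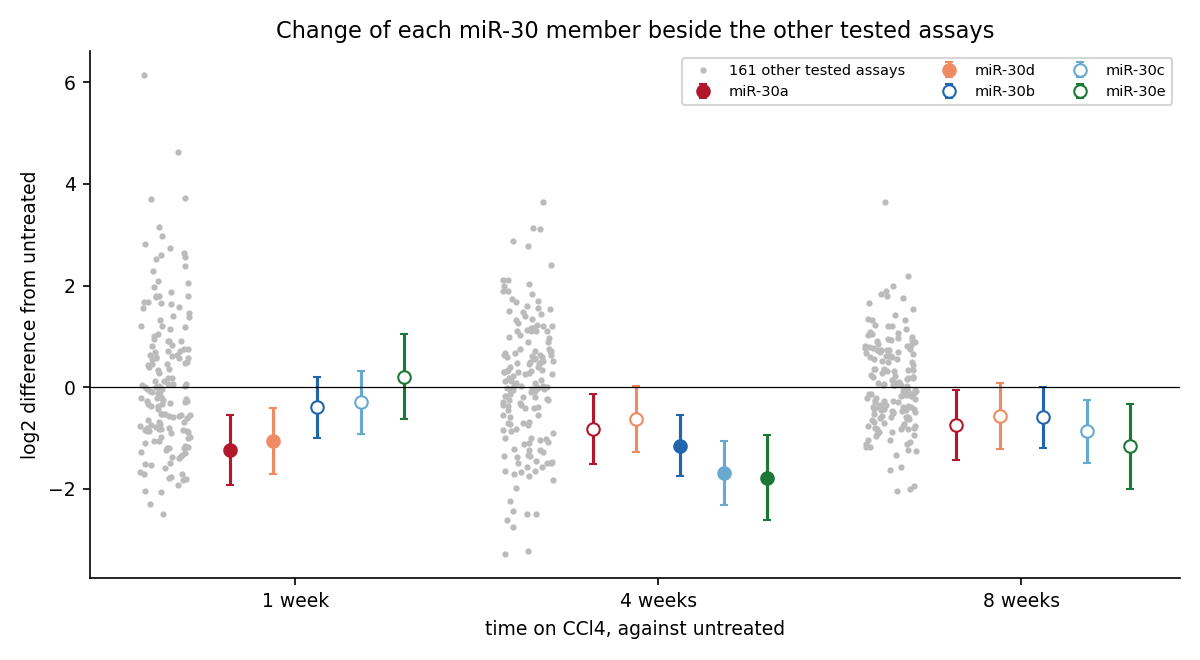
Log2 difference from untreated at each time for the 5 members (circles with 95% intervals from limma) beside the 161 other tested assays (grey points, spread sideways for visibility). Filled circles passed an adjusted p of 0.05, namely miR-30a and miR-30d at 1 week and miR-30b, miR-30c and miR-30e at 4 weeks. Members lie between -1.79 and 0.20.

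The change over time, in which age rises with treatment, was itself tested. From 1 to 4 weeks miR-30e fell by 1.99 on the log2 scale (SE 0.36, adjusted p = 0.00652), miR-30c by 1.39 (SE 0.27, adjusted p = 0.00782) and miR-30b by 0.76 (SE 0.26, adjusted p = 0.0434), where 25.3% of all assays were called lower. Over the same interval miR-30a and miR-30d gave 0.41 (adjusted p = 0.281) and 0.44 (adjusted p = 0.220), with ranges of 0.16 to 0.65 and 0.27 to 0.61 when each card was left out. The miR-30b call was lost whichever card was left out, with adjusted p-values from 0.0639 to 0.173, whereas that of miR-30c held in all 8 such fits. The count of 3 fell to 1 with the mean, geometric mean, median or quantiles of the card and to 0 without scaling. With U6 alone all 5 members were called higher, miR-30c at 2.49. Their median was then 3.12, beside 3.855 over all assays. From 1 to 8 weeks only miR-30e passed, at -1.36 (adjusted p = 0.0332), where 13.9% of assays were called lower, and this call was lost without 1-week replicate 1, 1-week replicate 2 or 8-week replicate 2. From 4 to 8 weeks none of the 5 passed, with 1.2% of assays called in either direction. All 5 gave positive values there, from 0.06 for miR-30d to 0.82 for miR-30c (unadjusted p = 0.0168, adjusted p = 0.188), though those of miR-30a and miR-30d turned negative under 4 of the scalings for miR-30a and 3 for miR-30d. An F test over the 3 times called 4 of 5 members, all but miR-30d (adjusted p = 0.0584), where it called 54.2% of all assays. It called 2 without either untreated card, either 1-week card or either 8-week card.

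Scaling of the cards decides where 0 lies in these comparisons, and U6, a spliceosomal RNA often used as a reference in miRNA PCR, moved strongly. Relative to the 149 reference assays U6 rose at 1 week, with a log2 difference of 2.38, and fell at 4 weeks, to a difference of -1.50, both past the test. snoRNA202 fell by 1.39 at 1 week, and snoRNA135 lay within 0.27 of untreated at all 3 times without passing the test. A scaling by any such reference shifts all assays of a card alike. It moved the median of all tested assays from -0.09 to -2.48 (U6) or 1.31 (snoRNA202) at 1 week, and from 0.03 to 1.53 (U6) at 4 weeks. Relative to the median assay the members stood at -1.14 (miR-30a), -0.98 (miR-30d), -0.30 (miR-30b), -0.21 (miR-30c) and 0.29 (miR-30e) at 1 week. At 4 weeks these values were -0.85, -0.66, -1.18, -1.72 and -1.82 in the same order. Quantile normalization, the one scaling that does not shift all assays of a card alike, also left all 5 below the median assay at 4 weeks and at 8 weeks.

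**Figure D3:**
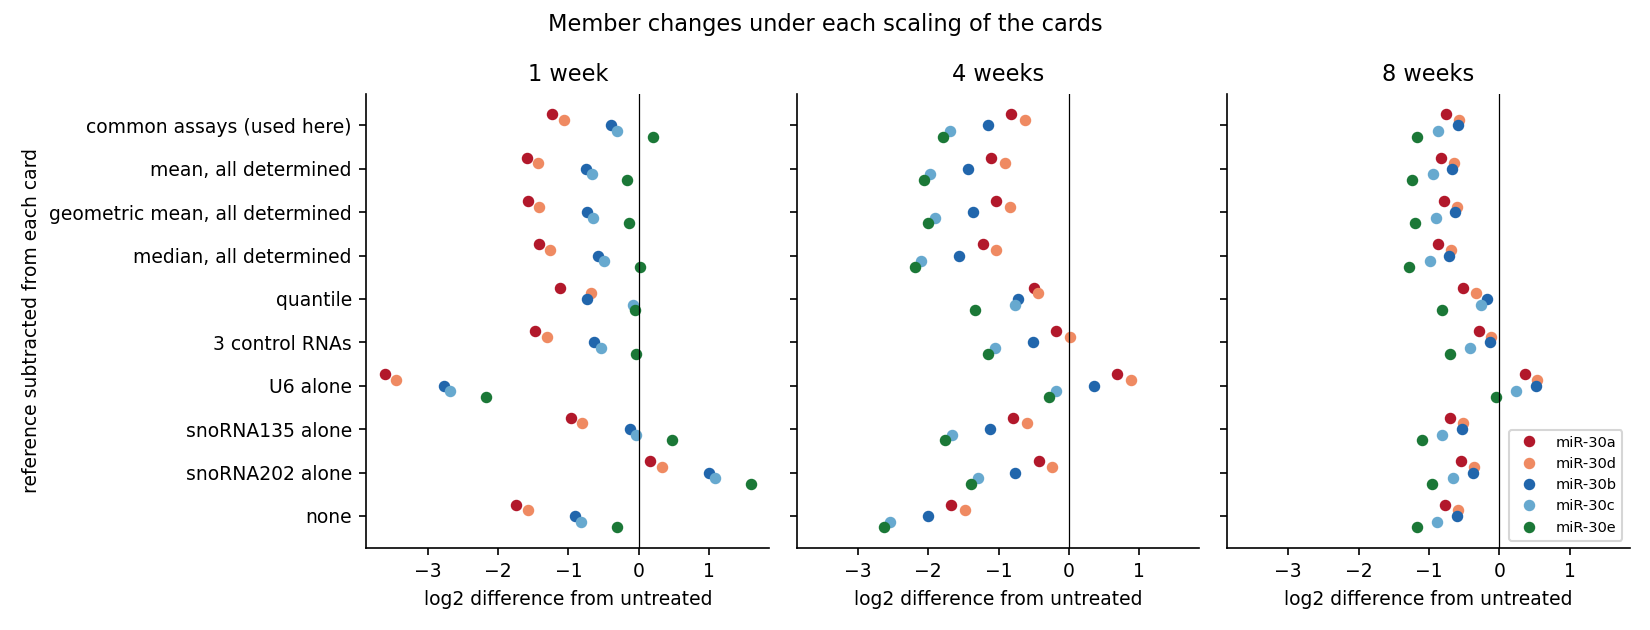
Log2 difference from untreated of each member under 10 scalings of the cards (rows), at 1, 4 and 8 weeks. The top row is the scaling used in the text and the bottom row leaves the Ct values unscaled. U6 and snoRNA202 shift all 5 members together, with all 5 above 0 at 1 week under snoRNA202 and 4 above 0 at 8 weeks under U6.

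How members differed from each other can be read without any scaling, from the ratio of 2 assays on the same card. Of the 13695 pairs of tested assays 10 are pairs of members, and at none of the times did a larger share of these 10 change than of all pairs, as given below. miR-30a over miR-30d stayed between 0.82 and 1.11 on the log2 scale on all 8 cards. Its SD over the cards was 0.12, the second smallest of all 13695 pairs, whose median SD was 1.07. From 1 to 4 weeks this ratio changed by -0.03 (95% interval -1.05 to 0.99, a width that comes largely from the spread shared across pairs). These are products of different gene clusters.

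miR-30b over miR-30c was the next steadiest, between -0.96 and -0.30 with an SD of 0.27, rank 70 of all pairs. miR-30c over miR-30e and miR-30b over miR-30e ranged over 1.15 and 1.64 (SD 0.39 and 0.60). The 6 pairs of miR-30a or miR-30d with another member ranged over 1.55 to 2.53, of which miR-30a over miR-30b (1.55, SD 0.50) and miR-30b over miR-30d (1.61, SD 0.48) were no wider than miR-30b over miR-30e. Since the members' lowest times were read from the same cards, these ranges describe them again and are no separate support. miR-30a over miR-30e stood at -0.71 and -1.10 in untreated liver, -2.36 and -2.32 after 1 week, -0.03 and 0.15 after 4 weeks, and -0.73 and -0.26 after 8 weeks. The 1-week cards were the lowest and the 4-week cards the highest. miR-30d over miR-30e ranged over 2.53 in the same way. The SDs of these 2 pairs were 0.97 (rank 5716) and 0.99 (rank 5947). Both were below the median SD of 1.07 over all pairs, so neither pair varied more than is usual on these cards. Mature miR-30a and miR-30e are the 2 sequences above that differ at 1 base.

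At 1 week 1 of the 10 member pairs had changed, miR-30a over miR-30e (-1.43, SE 0.47, adjusted p = 0.0446), where 32.1% of all pairs were called in either direction, and it was lost whichever card was left out. At 4 and at 8 weeks none of the 10 had changed against untreated, where 30.7% and 3.42% of pairs were called. The smallest unadjusted limma p-values among the 10 were 0.0390 (miR-30d over miR-30e) and 0.0495 (miR-30c over miR-30d) at 4 weeks. At 8 weeks the smallest was 0.251 (miR-30d over miR-30e). Between 1 and 4 weeks, a comparison added after the values were seen, 4 of the 10 had changed, where 46% of all pairs were called. These were miR-30d over miR-30e (2.43, adjusted p = 0.00526), miR-30a over miR-30e (2.40, adjusted p = 0.00508), miR-30c over miR-30d (-1.83, adjusted p = 0.0134) and miR-30a over miR-30c (1.80, adjusted p = 0.0148). Leaving out 1-week replicate 2 or 4-week replicate 2 left 2 of them. Between 1 and 8 weeks, also added, miR-30d over miR-30e (1.86, adjusted p = 0.0239) and miR-30a over miR-30e (1.84, adjusted p = 0.0227) had changed, where 27.4% of pairs were called, and both were lost without 1-week replicate 1, 1-week replicate 2 or 8-week replicate 2.

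The 2 steadiest pairs, miR-30a with miR-30d and miR-30b with miR-30c, share no gene cluster. miR-30b over miR-30d, from neighbouring genes on chromosome 15, was 0.67 higher at 1 week and 0.53 lower at 4 weeks than on the untreated cards, and its change of -1.20 between these times did not pass (95% interval -2.26 to -0.14, adjusted p = 0.0614). miR-30a over miR-30c, which share the chromosome 1 cluster, changed by 1.80. miR-30c over miR-30e, which share the chromosome 4 cluster, changed by 0.60 (95% interval -0.50 to 1.70, adjusted p = 0.331). Across the 8 cards the centred values of miR-30a and miR-30d had a Pearson correlation of 0.982, those of miR-30b and miR-30c 0.978, and those of miR-30d and miR-30e 0.06. These correlations describe 8 cards in 4 groups.

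**Figure D4:**
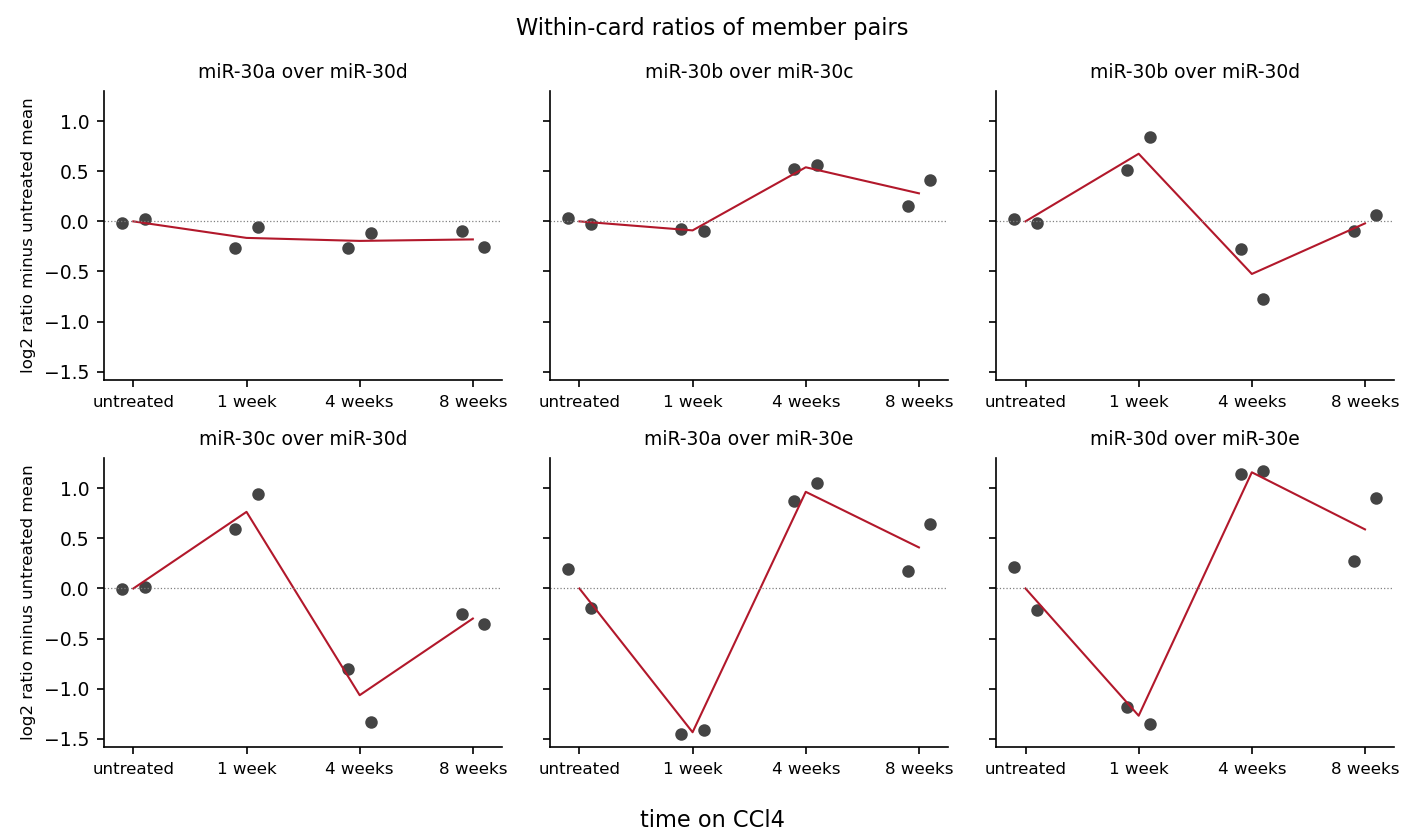
Within-card log2 ratio of 6 member pairs, minus its mean on the untreated cards, by time on CCl4. Points are cards and the line joins group means. miR-30a over miR-30d has a range of 0.29, whereas miR-30a over miR-30e and miR-30d over miR-30e span 2.51 and 2.53, with 1 week at the bottom and 4 weeks at the top.

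Among the 161 other tested assays, the 5 whose centred values were most like the mean of the 5 members over the 8 cards were miR-802 (Pearson correlation 0.972), miR-194 (0.958), miR-148a (0.927), miR-152 (0.910) and miR-101a (0.904). The median correlation over those 161 assays was -0.07. All points share the same cards, centring and group structure. miR-802, miR-194 and miR-148a are enriched in hepatocytes. At 4 weeks, the time at which the family mean they were chosen to resemble was lowest, all 5 were called lower (16.9% of all assays were), with log2 differences of -3.28, -2.49, -1.49, -1.23 and -2.23 in the order named, and at 1 week only miR-802 passed, at -1.72 (adjusted p = 0.00570). The members themselves correlated with their own mean at 0.949 (miR-30b), 0.935 (miR-30c), 0.850 (miR-30e), 0.631 (miR-30a) and 0.547 (miR-30d). The identity of these assays depended on the scaling, with 4 of the 5 kept when cards were centred on the mean of all determined assays, 1 with U6 alone and 0 with snoRNA202 alone, and on the cards, with 3 to 4 kept when any card was left out.

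**Figure D5:**
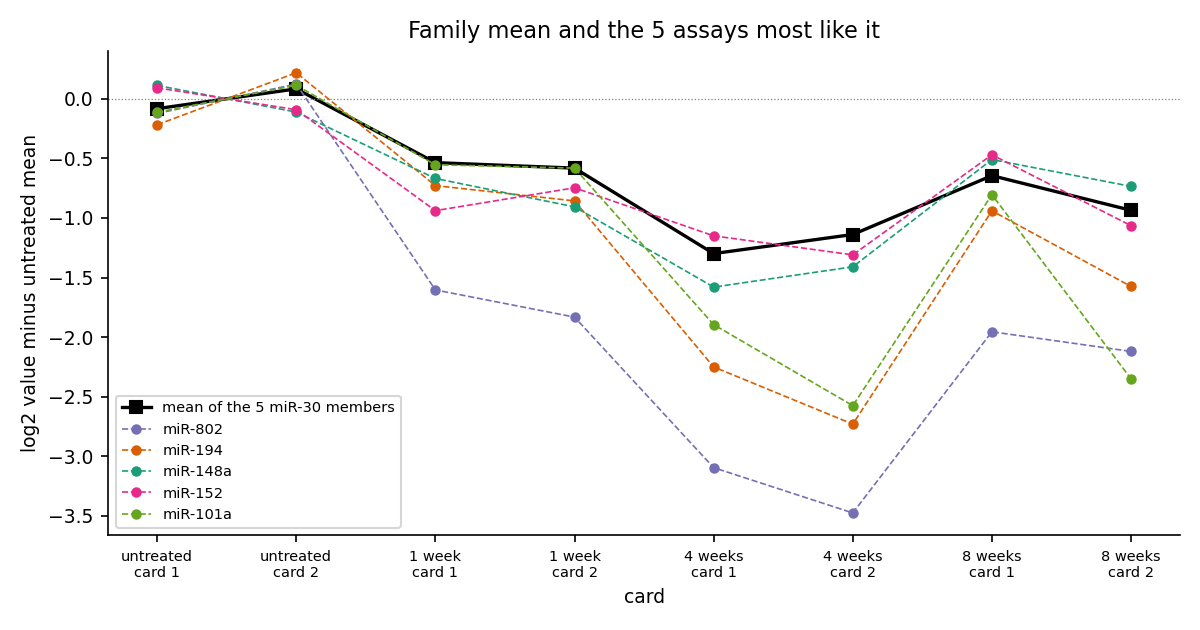
Centred log2 value minus its untreated mean on each of the 8 cards, for the mean of the 5 miR-30 members (black squares) and the 5 assays most like it. With this centring all group means are lowest at 4 weeks, where the differences from untreated of the 5 assays run from -1.23 (miR-152) to -3.28 (miR-802).

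Markers of liver cell types moved on the same cards. Of 5 hepatocyte-enriched miRNAs (miR-122, miR-192, miR-194, miR-148a and miR-802), 1 fell at 1 week, 4 at 4 weeks and 1 at 8 weeks, where 14.5%, 16.9% and 0.602% of all assays were called lower. Their summed relative level was 0.575 to 0.593, 0.340 to 0.382 and 0.592 to 0.694 at these times. miR-122 itself did not pass at any time, at -1.20, -0.23 and 0.09 on the log2 scale. Of 5 leukocyte miRNAs, 4 rose at 1 week, 4 rose at 4 weeks and none passed at 8 weeks, where 18.1%, 13.3% and 2.41% of all assays were called higher. Their summed relative levels were 3.41 to 4.13, 4.69 to 5.66 and 1.82 to 2.09. The leukocyte miRNAs that did not pass were miR-142-3p at 1 week (-0.20) and miR-150 at 4 weeks (0.13). Both strands of miR-126, which is enriched in endothelial cells, did not pass at 1 week (0.64 and 0.12) and fell by 1.83 and 1.65 at 4 weeks, with summed relative levels of 1.46 to 1.53 and 0.212 to 0.369. Of 4 mesenchymal miRNAs 2 rose at 4 weeks, miR-199a-3p and miR-214, with summed levels of 1.24 to 1.68, and none passed at 1 or 8 weeks. None of 4 tested epithelial miRNAs of the miR-200 group and neither of 2 erythroid miRNAs passed at any of the 3 times. All marker values are those with the 149 reference assays. Other scalings were not run for the lists, although at 1 week the shifts of U6 (2.38) and snoRNA202 (-1.39) exceed the medians of the leukocyte list (1.63) and the hepatocyte list (-0.79), whose signs would turn with U6 and snoRNA202, respectively. The part of any of these cell types in the miR-30 values was not tested.

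The let-7 family, another abundant miRNA family with 9 tested assays, had a median log2 difference of -1.37 at 1 week, where 3 of its members fell (14.5% of all assays) and all 9 lay below 0, and of 0.31 at 4 weeks, where let-7f and let-7g fell (16.9% of all assays) and the other 7 lay above 0 without passing. From 1 to 4 weeks 7 of the 9 rose, where 21.7% of all assays were called higher. At 8 weeks none of the 9 passed, with a median of 0.21. The let-7 values are those with the 149 reference assays, and other scalings were not run for them.

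miR-384-5p, which shares the miR-30 seed, was determined on 2 of 8 cards, at a Ct of 37.1 on 4-week replicate 1 and 34.6 on 8-week replicate 2, and miR-384-3p on none. No level or fold was taken from these values.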

How the data were processed

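Total liver RNA was reverse transcribed with a Megaplex rodent primer pool, without pre-amplification, and run on TaqMan cards. The authors deposited raw Ct values per assay and card (cycles, neither counts nor ratios), not normalized and not pooled. The software that set the threshold is not given in the sources used here. They also deposited fold changes against untreated, which were not used. No columns of samples outside the series were present.

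To centre each card, every Ct was subtracted from that card's mean over the 149 assays that stayed below 35 throughout. limma 3.58.1 in R 4.3.3 (lmFit, eBayes, prior degrees of freedom 3.47) was fitted to 166 assays and all 8 cards without a replicate block, with Benjamini-Hochberg adjustment over the 166 (or over the 13695 pairs) at 0.05. The same model was fitted to within-card Ct differences of all pairs. The code was tested on simulated data. The members, lists and tests were chosen with earlier results of these data known. Named were the 5 members, assays sharing their name or seed, the 5 assays most correlated with the family mean, and controls used for scaling; single markers and miR-122 were named after their values were seen. Alternatives were 9 other scalings, Ct limits of 32 or none, undetermined values at 40, a trend or only the groups compared in the fit, a looser threshold, the replicate block and each card left out. Precision is limited by 2 cards per group. Sequences and positions are from RefSeq (GRCm38.p6). Plots used matplotlib 3.10.9.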

Additional observations from a re-analysis of the deposited data

Results flagged for a closer look

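Some members differed between times on CCl4 by limma's test of the difference itself. These were miR-30b (-0.76), miR-30c (-1.39) and miR-30e (-1.99) between 4 weeks and 1 week. miR-30e (-1.36) also differed between 8 weeks and 1 week, all as log2 differences. The miR-30b difference did not pass in any of the 8 fits that left out a card. Outside the main measurement, miR-384-5p gave a Ct of 37.09 on the card of 4-week replicate 1 and of 34.61 on that of 8-week replicate 2, with no Ct on either untreated card or on the other 4 treated cards.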

How the results depend on the processing

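With each card left out in turn, the members called numbered 0 to 2 at 1 week, 1 to 3 at 4 weeks, 2 to 2 for 4 against 1 week, 0 to 1 for 8 against 1 week, 0 to 3 for the average over times and 2 to 3 by the F test, and the pairs called 0 to 0 at 1 week, 2 to 4 for 4 against 1 week and 0 to 2 for 8 against 1 week. In the same fits the log2 difference ranged from -0.051 to 0.46 for miR-30e at 1 week, and from -0.17 to 0.32 for miR-30a and -0.11 to 0.23 for miR-30d between 4 and 8 weeks. With 2 cards per group, each such fit takes the spread of a lone card from the other groups.

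Counts under other scalings, in either direction and in the order 1 week, 4 weeks, 4 against 1 week, 8 against 1 week, average and F test (main 2, 3, 3, 1, 4 and 4), were 2, 2, 1, 0, 0 and 2 with the card mean and with the geometric mean, 0, 2, 1, 0, 0 and 1 with the median, 1, 1, 1, 0, 0 and 1 with quantile normalization, and 0, 0, 0, 0, 0 and 0 without scaling. They were 2, 1, 3, 2, 0 and 2 with the 3 control RNAs, 5, 0, 5, 5, 0 and 5 with U6, 0, 2, 2, 1, 0 and 2 with snoRNA135, and 1, 1, 3, 3, 0 and 3 with snoRNA202. Undetermined values set to Ct 40 gave 0, 0, 2, 0, 0 and 0. All main calls were lower. Calls were higher for all 5 members with U6 at 4 against 1 week and at 8 against 1 week, for miR-30a and miR-30d with the controls at both, and for miR-30e with snoRNA202 at 1 week. With U6 the medians over all assays were 3.855 and 3.595 in these 2 comparisons. The cause was not tested. At an adjusted p of 0.10, 2 of the 10 member pairs passed at 1 week, 1 at 4 weeks and 7 for 4 against 1 week. No share of all pairs at 0.10 is given here, and at 0.05 it was already 32.1%, 30.7% and 46%.

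Signs turned as follows, as log2 differences. miR-30e at 1 week was -0.16 with the card mean, -0.14 with the geometric mean, -0.046 with quantiles, -0.037 with the controls, -2.17 with U6 and -0.31 unscaled. miR-30b for 8 against 1 week, with the members' median, was 0.089 with the card mean, 0.11 with the geometric mean, 0.50 with the controls, 3.29 with U6 and 0.30 unscaled, and with quantiles 0.55 (median 0.34). With U6, miR-30a, miR-30b and miR-30d were 0.68, 0.35 and 0.88 at 4 weeks, and miR-30a, miR-30b, miR-30c and miR-30d 0.36, 0.52, 0.24 and 0.54 at 8 weeks (medians 0.35 and 0.36). With U6, miR-30b, miR-30c and miR-30e were 3.12, 2.49 and 1.89 for 4 against 1 week (median 3.12), and miR-30c and miR-30e 2.92 and 2.12 for 8 against 1 week. With the controls, miR-30d was 0.013 at 4 weeks, miR-30b and the median 0.12 for 4 against 1 week, and miR-30c 0.13 for 8 against 1 week. With snoRNA202, miR-30a, miR-30b, miR-30c and miR-30d were 0.16, 1.00, 1.09 and 0.33 at 1 week (median 1.00), and miR-30a and miR-30d -0.59 and -0.56 for 4 against 1 week and -0.70 and -0.69 for 8 against 1 week. For 8 against 4 weeks, miR-30a was -0.016 with quantiles, -0.11 with the controls and with snoRNA202, and -0.32 with U6, and miR-30d -0.12 with the controls and with snoRNA202 and -0.34 with U6.

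The sources used here do not say whether equal replicate numbers pair cards. The correlation of replicate differences ran from -0.50 (untreated and 8 weeks) to 0.43 (4 and 8 weeks) over the 6 pairs of groups. It was -0.39 for untreated and 4 weeks. These values do not settle whether cards were paired, and an effect of the card left after centring was not tested. With the replicate number as a block, 2 members were called in the average, 2 by the F test, 2 for 4 against 1 week and 0 pairs at 1 week, and other counts were as in the fit without it. With the untreated numbers crossed, a choice made after seeing the data, 5 were called in the average and 5 by the F test. Of 870 member values under all alternatives, with a card left out 229 kept sign and side of the threshold, 45 calls were lost, 1 was gained and 5 values changed sign, and under the others 436, 93, 19 and 42. Most of these values were not called to begin with. In 395 of the 870 the alternative left the log2 difference unchanged, so its sign could not turn there.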

Other observations

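Taken singly, the members had different nearest assays outside the family, all chosen after their values were seen. Over the 8 cards the first 2 outside the family were the small nucleolar RNA U87 (0.903) and miR-27b (0.880) for miR-30a, and miR-27b (0.920) and miR-29b (0.895) for miR-30d. They were miR-194 (0.975) and miR-802 (0.972) for miR-30b, miR-192 (0.979) and miR-194 (0.977) for miR-30c, and miR-139-5p (0.964) and miR-203 (0.961) for miR-30e. These Pearson correlations describe 8 cards in 4 groups, and no test was made of them.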
